A study of Canis lupus familiaris with 2 samples.

Results

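H19 and a group of imprinted growth genes were examined in MDCK cells, a canine kidney line that grows as a columnar epithelial sheet, under different heights of culture medium. The members were chosen by symbol, H19 because its measured ratio of FPKM between the cultures was among the lowest of all features, and the others because imprinting of the gene is known. Of the 10 listed symbols, H19, IGF2, IGF2R, MEST, PEG10, GRB10 and PLAGL1 were found as such, giving 7 members of 23510 features in all. The other 3, CDKN1C, NNAT and PEG3, had no row under that symbol and were found by their RefSeq gene ID, since the files list them as LOC102154676, LOC609195 and LOC476371. They are described beside the members and are marked where they appear.

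One library came from cells kept in 2-cm-high medium (2 cm H2O) and 1 from cells kept in 50-cm-high medium (50 cm H2O), the column of medium setting the static pressure on the sheet. For each, 40000 cells were plated on a membrane insert in EMEM with serum, and the labels give 3 days of culture. Both libraries were from the same unmodified line, and neither culture had a drug or a transgene. There was 1 sample per group, so no value below has a replicate error, no difference could be tested, and each ratio describes a single pair of cultures. The files give FPKM, the number of fragments on a gene scaled to its exon length and to the size of the library, without read numbers, so the depth is unknown and no interval could be set. Values are given "at 2 cm" and "at 50 cm" for these cultures, and "lower" and "higher" refer to the FPKM value at 50 cm relative to that at 2 cm.

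An imprinted gene is expressed mainly from the copy inherited from one parent, which is set by DNA methylation laid down in the egg or the sperm. Many imprinted genes act on growth in the fetus and placenta, with paternally expressed genes often promoting it and maternally expressed genes often restraining it. H19, a noncoding RNA expressed from the maternal copy, and IGF2, a growth factor expressed from the paternal copy, lie side by side and share enhancers, and the protein CTCF bound between them keeps those enhancers from the maternal IGF2 promoter. These parental patterns are known from mouse and human. The FPKM values sum both copies and hold no information on which copy was read, so imprinting itself was not measured here.

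H19 and IGF2 were the members that stood out. Both were lower at 50 cm by more than 2-fold, whereas the receptor IGF2R, the adaptor GRB10 and the transcription factor PLAGL1 differed by little, and MEST was the member with the largest ratio in the opposite direction. Of the 7 members, 6 passed the minimum of 1 FPKM in each culture, and of these 2 were lower by more than 2-fold, none was higher by more than 2-fold and 4 lay within 2-fold. Among the 11057 features above 1 FPKM in both cultures, 1.67% were past 2-fold in either direction, 1.28% lower and 0.389% higher. These shares are background only, since the same contrast had entered the choice of members. The median log2 ratio of the 6 members was -0.15 and that of all 11057 features was 0.01.

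**Figure D1:**
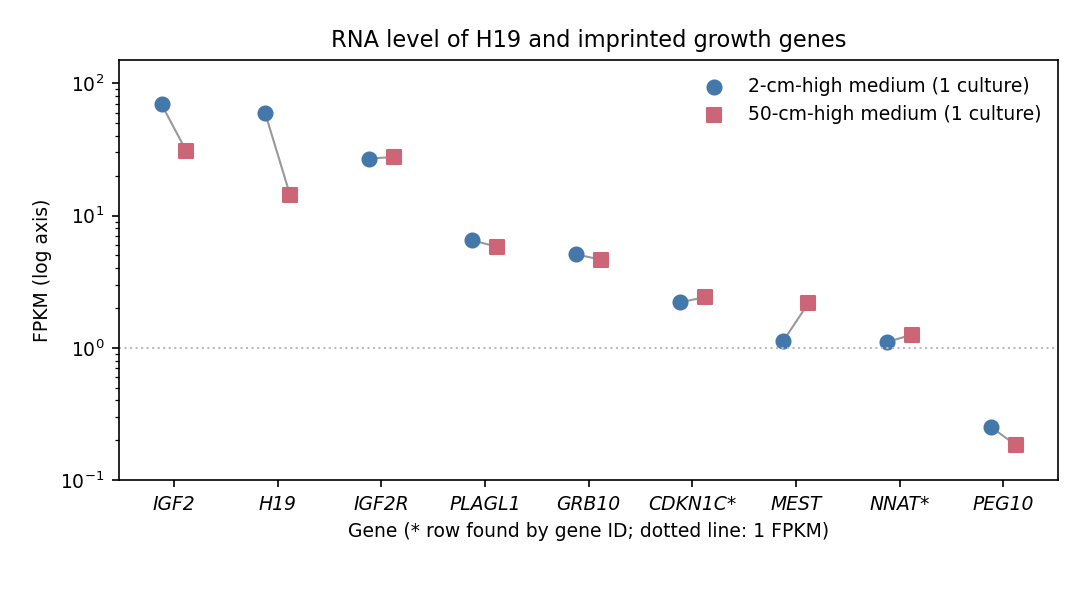
FPKM on a log axis of each gene in 2-cm-high medium (circles) and 50-cm-high medium (squares), 1 culture each, ordered by the 2-cm value; asterisks mark rows found by gene ID, the dotted line is 1 FPKM, and PEG3, listed at 0 in both, is left out. H19 goes from 59.6 to 14.3 FPKM and IGF2 from 69.3 to 30.7 FPKM, while the lines of IGF2R, PLAGL1 and GRB10 are nearly flat.

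H19 was at 59.6 FPKM at 2 cm and at 14.3 FPKM at 50 cm. The value at 2 cm was thus 4.17 times that at 50 cm, a log2 ratio of -2.06. H19 stood at rank 1678 of all features by FPKM at 2 cm and at rank 5950 at 50 cm. Of the features above 1 FPKM in both cultures, only CXCR7, KIAA1755, LOC488818 and RLBP1 had a lower ratio. In the decile of features that holds H19 by mean expression, the middle 95% of log2 ratios ran from -0.53 to 0.53, a range across genes and not a replicate error.

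IGF2, which encodes insulin-like growth factor 2, was the most abundant member by FPKM in both cultures. It was at 69.3 FPKM at 2 cm and at 30.7 FPKM at 50 cm, a log2 ratio of -1.18. This was rank 80 from the lowest ratio among the 11057 features, and the middle 95% of log2 ratios in its expression decile ran from -0.48 to 0.57. The H19 level was 0.860 times the IGF2 level at 2 cm and 0.466 times at 50 cm, both in FPKM, which is scaled by gene length. H19 therefore had the lower ratio of the pair, by 0.88 on the log2 scale, with no replicate to set that gap against. Although the parental copies that express them are opposite, H19 and IGF2 lay on the same side of 2-fold.

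IGF2R takes IGF2 from the cell surface to the lysosome for breakdown and also carries newly made lysosomal enzymes that bear mannose 6-phosphate. Its FPKM value was 26.9 at 2 cm and 27.8 at 50 cm, a log2 ratio of 0.05. With the ligand lower and this receptor 3.30% above its 2-cm value, IGF2 stood at 2.58 times IGF2R at 2 cm and at 1.10 times at 50 cm, both in FPKM. GRB10, an adaptor that binds the activated insulin and IGF1 receptors and dampens their signal, was at 5.08 FPKM at 2 cm and 4.63 FPKM at 50 cm (log2 ratio -0.13). PLAGL1, a zinc finger transcription factor that restrains proliferation and acts on other imprinted genes, was at 6.48 and 5.80 FPKM, respectively (log2 ratio -0.16). The values of IGF2R, GRB10 and PLAGL1 all lay well inside the middle 95% of log2 ratios of features with similar expression, which was narrowest for IGF2R, at -0.53 to 0.53, and widest for GRB10, at -1.12 to 0.73.

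MEST, which encodes a protein of the alpha/beta hydrolase fold and is paternally expressed, was the only member with a large ratio upward. Its FPKM value was 1.13 at 2 cm and 2.17 at 50 cm, a ratio of 1.92 that fell short of 2-fold (log2 ratio 0.94). Only 52 of the 11057 features had a higher ratio, but MEST was in the lowest expression decile, where the middle 95% of log2 ratios spanned -1.13 to 0.71. Its level at 2 cm lay just above the minimum of 1 FPKM. Quantile normalization of the cultures put it past 2-fold (log2 ratio 1.14), whereas a pseudocount of 1 lowered its log2 ratio to 0.57. PEG10, a gene derived from a retrotransposon and essential in the placenta, was at 0.252 FPKM at 2 cm and 0.184 FPKM at 50 cm, under the minimum in both. In the files, a ratio of 1.098 between the cultures recurred in 219 of the 574 features that were above 0 and below 0.1 FPKM in both, which is what a single read per library would give. Relative to it, the PEG10 ratio of 0.732 was that of 2 reads against 3, to within 0.05%. Multiples of these numbers give the same ratio, and no direction was read from PEG10.

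The 3 genes found by gene ID were at low levels. CDKN1C, a cyclin-dependent kinase inhibitor and a restraint on fetal growth, was at 2.201 FPKM at 2 cm and 2.42 FPKM at 50 cm. Its ratio was 1.098, which is the ratio of equal read numbers in both libraries, and 3.95% of all features above 1 FPKM lay at a ratio of whole read numbers up to 10, to within 0.05%. NNAT, which encodes the small membrane proteolipid neuronatin, was at 1.11 FPKM at 2 cm and 1.26 FPKM at 50 cm (log2 ratio 0.18). PEG3, a zinc finger gene, was listed at 0 in both cultures, as were genes that most cells use, such as the insulin receptor gene INSR, so the 0 does not show that PEG3 RNA was absent. With the genes found by gene ID included, 2 of 8 genes above 1 FPKM were past 2-fold, beside 1.67% of all features. These were H19, which was chosen for its low ratio, and IGF2.

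**Figure D2:**
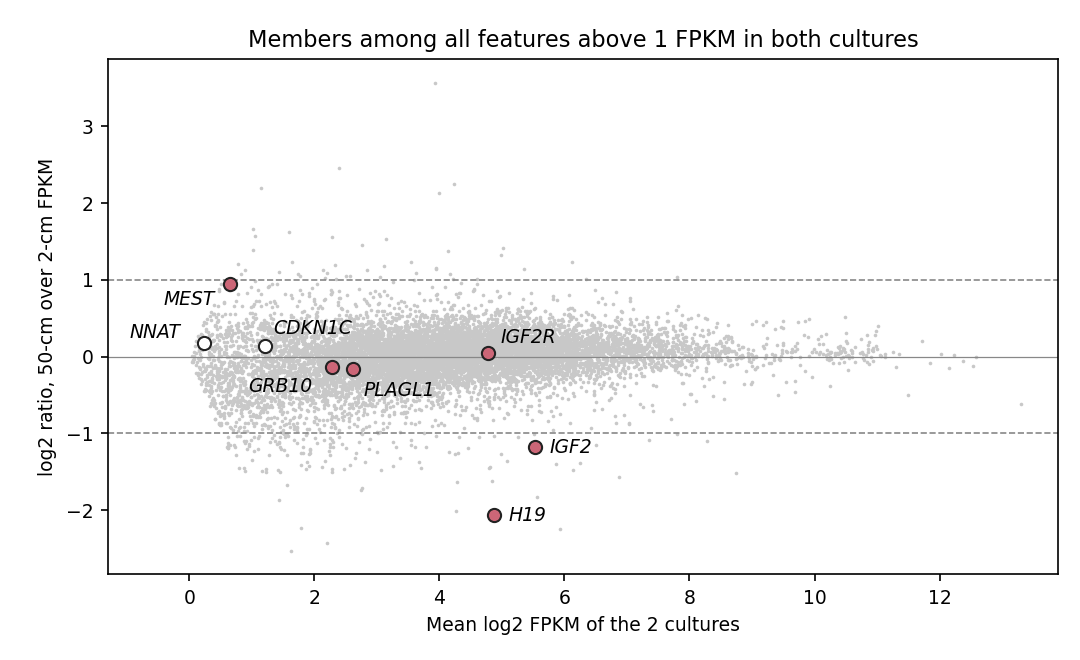
Log2 ratio of 50-cm over 2-cm FPKM against mean log2 FPKM for the 11057 features above 1 FPKM in both cultures (grey), with the 6 members above that minimum in red, CDKN1C and NNAT (found by gene ID) in white, and dashed lines at 2-fold. H19 at -2.06 and IGF2 at -1.18 lie below the lower line, and MEST at 0.94 lies just under the upper one.

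By the rule of likeness, the distance between log2 FPKM values in the pair of cultures, the 5 features nearest to H19 were FXYD2, TM7SF2, PDK1, FDFT1 and MSMO1. They had 46.0 to 54.3 FPKM at 2 cm and 16.3 to 21.2 FPKM at 50 cm. FXYD2 encodes a regulatory subunit of the sodium pump in the kidney and was nearest, at 50.4 and 16.3 FPKM, with a distance of 0.31 on the log2 scale. TM7SF2, FDFT1 and MSMO1 encode enzymes of sterol synthesis, and PDK1 encodes a kinase that inhibits pyruvate dehydrogenase. The likeness rests on 2 values per gene and describes levels only.

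The genes around H19 and IGF2 were then compared. Their order was taken from the RefSeq annotation of another dog assembly, UU_Cfam_GSD_1.0, because no annotation of CanFam3.1, the build of the files, was used here, and no positions are given for that reason. SYT8, a synaptotagmin gene, was at 12.2 FPKM at 2 cm and 3.67 FPKM at 50 cm (log2 ratio -1.74). TNNI2, which encodes the inhibitory troponin subunit of fast skeletal muscle, was at 14.0 and 5.04 FPKM, respectively (log2 ratio -1.47). MRPL23, a gene of the mitochondrial ribosome that lies between TNNI2 and H19, was at 88.3 and 78.3 FPKM (log2 ratio -0.17). CTSD, the cathepsin D gene at the start of the stretch, was at 837 and 667 FPKM (log2 ratio -0.33).

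Thus 4 of the 6 placed features above 1 FPKM from CTSD to IGF2 (SYT8, TNNI2, H19 and IGF2) were lower by more than 2-fold, beside 1.28% of all features, and the other 2 were lower by less. LSP1 was at 0.243 and 0.255 FPKM, and TNNT3, INS and TH were listed at 0 in both cultures. The low ratio of SYT8 was known when the stretch was listed, and 2 of the 4 genes are members, so the count describes the stretch and supports nothing further. SYT8 and TNNI2 are adjacent, and how reads shared by close genes were assigned is not stated.

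On the other side of IGF2, the 9 features above 1 FPKM that could be placed from CD81 to OSBPL5 all lay within 2-fold, with log2 ratios of -0.97 to 0.48. CARS, a transfer RNA synthetase gene of this domain that had no entry of that symbol in the annotation and so no place in the order, was at 71.92 FPKM at 2 cm and 74.99 FPKM at 50 cm (log2 ratio 0.06). The first of the 9 placed features, CD81, a tetraspanin gene found by gene ID, was at 77.9 FPKM at 2 cm and 83.8 FPKM at 50 cm. KCNQ1, a potassium channel gene that overlaps the imprinting control region of this domain, came closest to 2-fold, from 4.64 to 2.37 FPKM (log2 ratio -0.97). It passed 2-fold when the cultures were scaled to the same summed FPKM. Under the minimum, ASCL2 was at 0.154 and 0.0423 FPKM, the ratio of 4 reads against 1, and TSPAN32 at 0.891 and 0.723 FPKM. Of all features, 1.67% were past 2-fold, so a count of none among these 9 does not set this side apart. SLC22A18 and NAP1L4, which flank the CDKN1C side, had log2 ratios of 0.16 and 0.36.

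**Figure D3:**
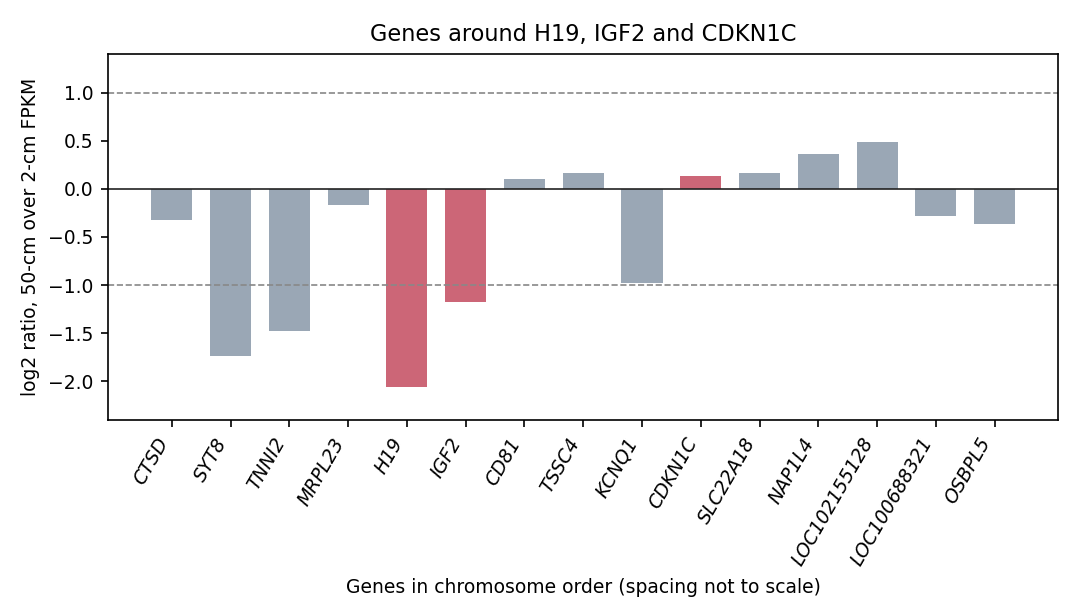
Log2 ratio of 50-cm over 2-cm FPKM of the 15 features above 1 FPKM in both cultures that could be placed from CTSD to OSBPL5 (CARS could not), in chromosome order with spacing not to scale, H19, IGF2 and CDKN1C in red and dashed lines at 2-fold. SYT8, TNNI2, H19 and IGF2 pass the lower line, MRPL23 between them does not, and from CD81 onward no bar passes either line.

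The nearest expressed gene on each side of each listed gene was also compared. Across all 10 listed genes there were 18 such neighbours above 1 FPKM that are not members themselves. None was past 2-fold, beside 1.67% of all features, so this count does not set them apart. MRPL23 and CD81, next to H19 and IGF2, are among the 18. H19 and IGF2 are each other's nearest neighbour on 1 side, and the count leaves members out. It therefore cannot compare their place with those of the other genes. COPG2, whose 3' end overlaps MEST in other mammals, was at 21.4 FPKM at 2 cm and 20.6 FPKM at 50 cm, while MEST went the other way. BLCAP, the gene that holds NNAT in an intron, was at 33.7 and 42.4 FPKM. SGCE, which shares a promoter region with PEG10, was listed at 0 FPKM at 2 cm and at 0.0632 FPKM at 50 cm, so both sides of that promoter were near 0. PPP1R9A, the next expressed gene past PEG10 and itself imprinted in some tissues, was at 5.61 and 3.16 FPKM (log2 ratio -0.83).

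A wider list of 54 genes known to be imprinted in human or mouse was set beside the members. Of these, 41 were found, 16 were listed at 0 in both cultures, among them DLK1, RTL1 and DIO3 of one cluster, and 20 were above 1 FPKM in both. None of the 20 was past 2-fold, 10 were lower and 10 higher, and their median log2 ratio was 0.02, beside 0.01 for all features. Only 1.67% of all features were past 2-fold, so this count does not set the list apart. The extremes were KCNQ1, at -0.97, and NAP1L5, a nucleosome assembly gene, at 0.42 (from 5.12 to 6.83 FPKM). The most abundant were GNAS, the gene of the stimulatory G protein alpha subunit, at 421 and 334 FPKM, and SNRPN, a splicing protein gene with a close relative in the genome, at 408 and 398 FPKM. Among the listed imprinted genes above 1 FPKM, the values past 2-fold were those of H19, which was chosen for its low ratio, and IGF2. KCNQ1 joined them when the cultures were scaled to the same summed FPKM, and MEST under quantile normalization.

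The IGF pathway around the members was described next. IGF1R, the receptor that carries the growth signal of IGF2, was at 23.6 FPKM at 2 cm and 23.5 FPKM at 50 cm (log2 ratio -0.01), and IGF1, the other ligand, was listed at 0 in both. The 7 receptor and adaptor genes above 1 FPKM had a median log2 ratio of 0.18, beside 0.01 for all features. Of these 7, 1 was lower by more than 2-fold, beside 1.28% of all features, and none was higher, beside 0.389%. The lower gene was GRB7, a relative of GRB10 that binds the ERBB2 receptor, at 9.65 and 4.78 FPKM (log2 ratio -1.01). A pseudocount of 0.1 already brought GRB7 within 2-fold. GRB14, the third of this family, was at 5.17 and 4.87 FPKM, and the docking proteins IRS1 and IRS2 had log2 ratios of 0.21 and 0.31.

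The mannose 6-phosphate pathway that IGF2R serves was listed next. All 9 of its genes above 1 FPKM lay within 2-fold, as did all but 1.67% of all features. Their median log2 ratio was 0.01, beside 0.01 for all features. M6PR, the smaller receptor for the same tag, was at 110 FPKM in both cultures (109.7 and 110.4), and GNPTAB, the enzyme that starts the tag, at 24.7 and 25.1 FPKM. The lowest ratio belonged to CTSD, a cargo enzyme that is also in the H19 stretch, and the highest to the sorting adaptor GGA1 (log2 ratio 0.19).

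Genes for proteins that bind H19 or IGF2 RNA, process microRNAs or belong to the let-7 axis were found above 1 FPKM in 12 of 14 cases. All 12 lay within 2-fold, as did all but 1.67% of all features. Of the 12, 3 were lower and 9 higher, with a median log2 ratio of 0.14, beside 0.01 for all features. IGF2BP1, which binds both RNAs, was at 37.9 FPKM at 2 cm and 48.1 FPKM at 50 cm (log2 ratio 0.34), IGF2BP3 at 24.8 and 21.2 FPKM (-0.22), and HMGA1, a chromatin protein gene and the highest of the list, at 339 and 450 FPKM (0.41). KHSRP, an RNA decay and microRNA processing factor that H19 can bind, had a log2 ratio of 0.27. H19 is also the precursor of a microRNA, which was not measured here.

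The machinery that reads and keeps imprinted methylation had 12 genes above 1 FPKM, 6 lower and 6 higher, with a median log2 ratio of -0.03. All 12 lay within 2-fold, as did all but 1.67% of all features, so this count does not set the list apart. CTCF was at 31.8 FPKM at 2 cm and 34.8 FPKM at 50 cm (log2 ratio 0.13). DNMT1, the maintenance methyltransferase, was at 65.3 and 65.9 FPKM (0.01). UHRF1, which brings DNMT1 to replicated DNA, had the highest ratio, from 38.8 to 49.0 FPKM (0.34), and the zinc finger gene ZNF445 the lowest, from 14.8 to 12.4 FPKM (-0.25). These are RNA levels, and methylation at the H19 and IGF2 locus was not measured.

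For CDKN1C, its relatives and the cyclins and kinases of G1 were listed. All 10 were above 1 FPKM, 9 were higher and 1 lower, and their median log2 ratio was 0.34, beside 0.01 for all features. Of the 10, 1 was higher by more than 2-fold, beside 0.389% of all features. It was CCND1, the cyclin D1 gene, from 45.7 to 107 FPKM (log2 ratio 1.23). The inhibitor CDKN1A was at 51.0 and 88.6 FPKM (0.80), whereas the inhibitor CDKN1B was at 47.3 and 32.3 FPKM (-0.55). In FPKM, CDKN1A was 23.2 times and CDKN1B 21.5 times as abundant as CDKN1C at 2 cm, and 36.7 and 13.4 times at 50 cm. CDKN1C was found by gene ID, at a low level and with unknown read numbers, so these multiples are rough. Of the PLAG family, PLAGL2 was at 11.9 and 12.8 FPKM, beside PLAGL1 at 6.48 and 5.80 FPKM, and PLAG1, an activator of IGF2 in other systems, was at 0.346 and 0.0894 FPKM, under the minimum. Of the genes that share the retrotransposon origin of PEG10, LDOC1 (found by gene ID) and RGAG4 were above 1 FPKM, with log2 ratios of 0.00 and -0.08.

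**Figure D4:**
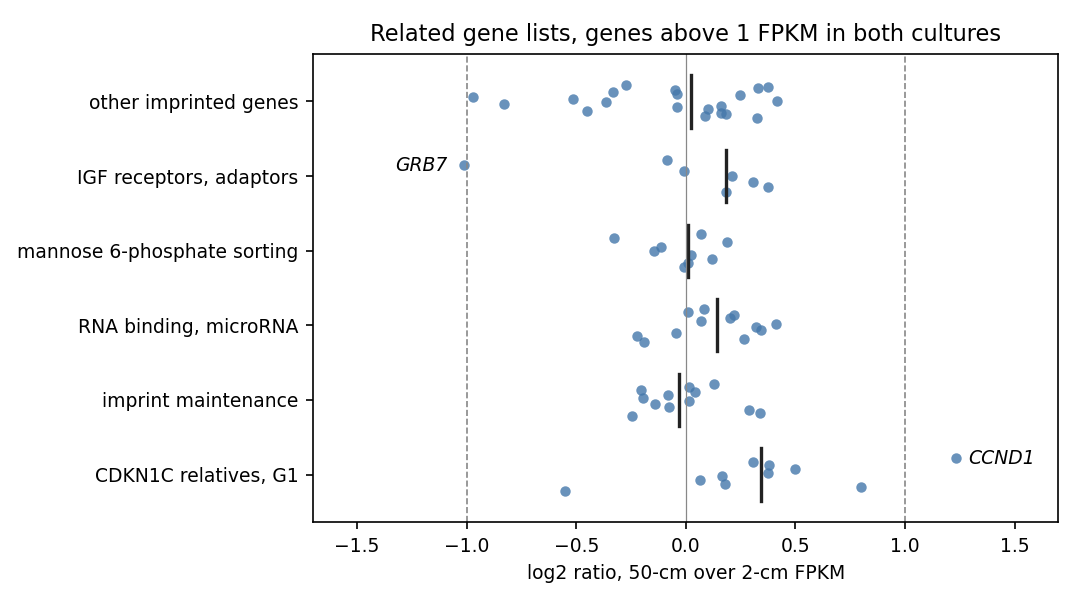
Log2 ratio of 50-cm over 2-cm FPKM of each gene above 1 FPKM in both cultures (points) in 6 related lists, with the list median as a black bar and dashed lines at 2-fold. GRB7 at -1.01 and CCND1 at 1.23 are the points past 2-fold, and the medians run from -0.03 for imprint maintenance to 0.34 for the CDKN1C relatives and G1 genes.

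The label of the cells was checked against markers. Of 9 markers of epithelium or kidney, all were found, and 8 were above 1 FPKM in both cultures and within 2-fold. KRT8, KRT18 and KRT19, which are not particular to kidney, were at 1306 to 1641 FPKM. The exception was CDH16, a kidney cadherin, at 1.96 and 0.676 FPKM (log2 ratio -1.54), under the minimum at 50 cm. Of 8 markers of fibroblasts, endothelium and immune cells, 7 were found and none exceeded 0.181 FPKM, with COL3A1, DCN, PECAM1 and PTPRC listed at 0 in both cultures. Their summed level was 0.274 FPKM at 2 cm and 0.122 FPKM at 50 cm. As for PEG3, a listed 0 does not show that the RNA was absent, so the markers at 0 add little to this check. In bulk RNA, fewer cells that express H19 or IGF2 and less of that RNA per cell cannot be told apart. With 1 library per height, the height cannot be told apart from anything else that differed between the cultures.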

How the data were processed

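RNA from MDCK cells was sequenced from 1 culture per medium height. Per the methods and labels, the authors prepared strand-specific libraries of polyadenylated RNA, read 75 bases from one end, aligned to CanFam3.1 using TopHat2 2.0.13, Bowtie2 2.2.3 and SAMtools 0.1.19, and deposited FPKM values made with Cuffnorm 2.2.1. The annotation, strand setting and scaling method are not given in the sources used here. If the values were scaled to the library total, a shift in a few abundant genes moves every other FPKM value.

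From the deposited FPKM values, the ratio of 50-cm over 2-cm was taken without a pseudocount. A 2-fold limit (above 2 or below 0.5) was applied to features above 1 FPKM in both cultures, the limits that the study's methods state. The features nearest this limit had log2 ratios of -1.002 (DLA-DMB) and -0.997 (LOC102154725) on the lower side. No test was run, since each group holds 1 sample. The members and gene lists were chosen with earlier results of these data known. The genes named are the members, the genes of each list past 2-fold or at its extremes, the nearest expressed neighbours and the 5 features nearest to H19. Others are named for context, after their values were seen. List symbols without a row were matched by RefSeq gene ID (UU_Cfam_GSD_1.0).

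Alternatives were pseudocounts of 0.1 and 1, recentring, quantile normalization, equal summed FPKM and other FPKM minima. The script that counts ratios past 2-fold was tested on simulated data. The software was pandas 2.3.3 and numpy 2.4.6 under Python 3.11.15, with matplotlib 3.10.9 for the plots. Sequences and promoters were not analysed here.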

Additional observations from a re-analysis of the deposited data

How the results depend on the processing

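Of 35 recomputed log2 ratios of the 7 members (pseudocounts and scalings), 33 kept their direction and their side of 2-fold. H19 ranged from -2.09 to -1.99, IGF2 from -1.25 to -1.15 and MEST from 0.57 to 1.14. Quantile normalization took IGF2R to -9.5e-05, on the other side of 0 by a negligible amount, and MEST to 1.14, past 2-fold. The list of loci paired with members includes MEST, and the 1 gene of that list past 2-fold under this setting was MEST itself. The number of members past 2-fold was 3 under quantile normalization, through MEST, and 2 under each other alternative, including the rows found by gene ID, an alternative added after the data were seen. The number of all features past 2-fold was 92 with a pseudocount of 1, 1216 above 0 FPKM, 730 above 0.1 FPKM, 62 above 5 FPKM and 384 above 1 FPKM in at least one culture, against 185. Of the other imprinted genes, 1 passed with equal summed FPKM and 1 above 0 FPKM, against 0. The same held for the genes around CDKN1C, through KCNQ1 and ASCL2, respectively. Of the IGF receptor and adaptor genes, 0 passed with either pseudocount, quantile normalization or a minimum of 5 FPKM, and 2 passed above 0 FPKM, against 1. In the PLAG family, 1 passed above 0 FPKM, against 0. A lower minimum admits more features by construction, and the cause of the other shifts was not tested. No paired analysis was possible because each group holds 1 sample. With 1 culture per height and unknown depth, neither replicate error nor counting error can be given, which weighs most on MEST, PEG10, CDKN1C and NNAT.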
